A study of Mus musculus with 8 samples.

Results

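miR-143, miR-145a and miR-199 are miRNAs best known from smooth muscle and connective tissue, and they were measured here in mouse sperm. The miRNA table was searched for entries named miR-143, miR-145, miR-145a, miR-199a, miR-199b or miR-214. The search found 8 of 387 entries, both arms of miR-143 (mmu-miR-143-3p and mmu-miR-143-5p), of miR-145a (mmu-miR-145a-3p and mmu-miR-145a-5p), of miR-199a (mmu-miR-199a-3p and mmu-miR-199a-5p) and of miR-199b (mmu-miR-199b-3p and mmu-miR-199b-5p). The species prefix is left out below. The search found no miR-214 entry, so miR-214 was not analysed here. The study compared small RNA of sperm from C57BL/6 animals aged 2 months, in 4 libraries named Trained and 4 named Exposed. All 8 carry the label F0, and beyond a link to smell and stress the labels do not describe either treatment. Nothing says whether a library is 1 animal or a pool, so p-values measure the spread between libraries, which may be technical. The samples are bulk RNA, so fewer cells of a type and less miRNA per cell cannot be told apart.

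A miRNA is cut from a hairpin precursor, which can yield a 5p and a 3p strand, and the strand loaded into an Argonaute protein pairs with messenger RNAs mainly through its seed, bases 2 to 8. miR-143 and miR-145 are made from 1 primary transcript that serum response factor and myocardin drive in smooth muscle, where they favour the contractile state. The Mir199a-2 hairpin of miR-199a shares a primary transcript with miR-214, Dnm3os, of mesenchyme and fibroblasts. The Mir199a-1 hairpin, with the same mature sequences, lies on another chromosome. Sperm themselves transcribe little, and part of their small RNA is acquired in the epididymis, a duct with a smooth muscle wall.

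The miR-199 sequences are shown because the table divides 1 mature sequence between separate entries. RefSeq (GRCm38.p6) held the mature sequence of 3 of the 8 members, written here 5′ to 3′ with the seed in capitals.
miR-199a-3p: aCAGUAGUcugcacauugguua
miR-199b-3p: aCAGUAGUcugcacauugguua
miR-199a-5p: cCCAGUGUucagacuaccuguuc
The miR-199a-3p and miR-199b-3p sequences were identical at 22 of 22 bases, so they also share the seed CAGUAGU. miR-199a-5p has another seed, CCAGUGU. The 3p sequence lies in 3 hairpins, shown with it in capitals.
Mir199a-1: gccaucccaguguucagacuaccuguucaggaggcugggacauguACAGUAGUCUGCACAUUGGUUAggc
Mir199a-2: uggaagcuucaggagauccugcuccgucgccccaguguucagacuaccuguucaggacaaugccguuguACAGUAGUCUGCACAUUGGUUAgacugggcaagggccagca
Mir199b: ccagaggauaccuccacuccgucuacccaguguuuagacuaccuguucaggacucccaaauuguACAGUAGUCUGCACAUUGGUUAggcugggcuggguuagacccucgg
Outside the capitals the 3 hairpins differ, but a read of the mature strand alone carries none of that difference.

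In GRCm38, Mir199a-1 lies at chr9:21496495-21496564 on the minus strand, in an intron of Dnm2 on the other strand. Mir199a-2 lies at chr1:162217814-162217923 on the plus strand, in an exon of Dnm3os and opposite an intron of Dnm3. Mir199b lies at chr2:32318460-32318569 on the plus strand, opposite an intron of Dnm1. All 3 hairpins are thus antisense to a dynamin gene, a family of GTPases that pinch off membrane vesicles. Mir143 is at chr18:61649196-61649258 and Mir145a at chr18:61647825-61647894, both on the minus strand, with 1301 bases between them and no overlapping gene in the annotation. The count table names no genome build, so these positions are those of the annotation.

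Of the 8 entries, miR-143-3p held nearly all reads. It took 95.2% to 97.0% of the members' reads in each library and stood 30th of 387 entries by mean level. Its level in CPM, the count scaled to a common library total, was 8389, 7768, 7060 and 7364 in Trained 1 to 4, against 10104, 15189, 8845 and 7849 in Exposed 1 to 4. Exposed 2 was the highest of the 8, and Exposed 4 fell inside the range of the Trained libraries, so the groups overlapped. The library counts behind these levels were 1765 to 2101 reads in Trained and 1515 to 3173 in Exposed. The members together made up 0.794% ± 0.0553 (SD, n = 4) of counts in Trained and 1.08% ± 0.335 (SD, n = 4) in Exposed, or 0.924% ± 0.115 (SD, n = 3) in Exposed without Exposed 2.

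The 7 other entries were far lower, with 52 to 100 reads per library between them. By mean CPM over the 8 libraries the order was miR-199a-3p (89.5), miR-145a-3p (71.4), miR-199b-3p (67.5), miR-199a-5p (60.4), miR-143-5p (12.2), miR-199b-5p (11.0) and miR-145a-5p (10.5). Neighbours from miR-199a-3p to miR-199a-5p overlapped in their ranges over libraries, and so did the last 3. Mature miRNAs are of similar length, so CPM was not scaled by length. How well each sequence was captured by the library chemistry was not measured.

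**Figure D1:**
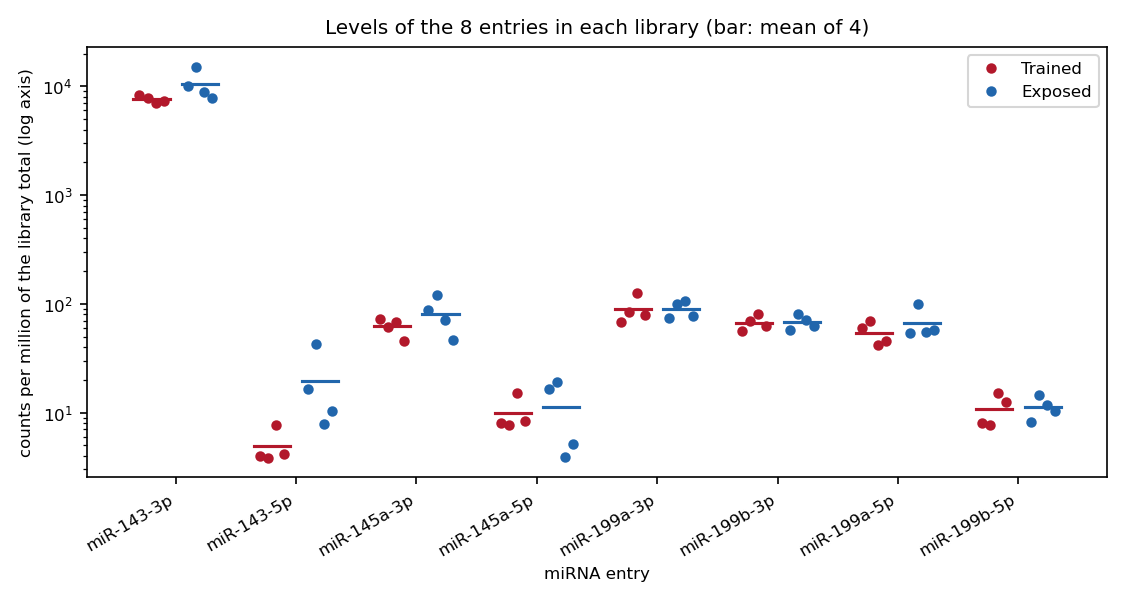
Level in CPM of the library total (log axis) for the 8 entries; each point is a library, Trained left of Exposed, and bars are means of 4. miR-143-3p lies between 7060 and 15189 CPM, and no other entry passes 126 CPM.

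The partners miR-143 and miR-145a were very unequal in these libraries. miR-143-3p had 103 to 168 times the reads of miR-145a-3p (median 126, n = 8 libraries). miR-145a made up 0.932% ± 0.184 of the reads of miR-143 plus miR-145a in Trained and 0.851% ± 0.149 in Exposed (SD, n = 4 each; exact permutation p = 0.543, two-sided, 0.724 adjusted over 4 shares tested).

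Within miR-145a, the 3p strand was the main one. miR-145a-3p had 18, 16, 18 and 11 reads in Trained 1 to 4, and 21, 25, 18 and 9 reads in Exposed 1 to 4. miR-145a-5p, the strand usually taken as the functional one in smooth muscle, had 2, 2, 4 and 2 reads in Trained and 4, 4, 1 and 1 in Exposed. Every library thus had more 3p than 5p reads. Over all libraries 5p was 20 of 156 miR-145a reads, or 12.8% (95% Wilson interval 8.45% to 19.0%, counting error only).

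miR-143 was still more one-sided, with 22 of 17149 reads from the 5p strand, or 0.128% (Wilson interval 0.0847% to 0.194%). miR-143-5p had 1, 1, 2 and 1 reads in Trained 1 to 4, against 4, 9, 2 and 2 reads in Exposed 1 to 4. As CPM this was 3.99, 3.84, 7.64 and 4.17 in Trained and 16.5, 43.1, 7.84 and 10.4 in Exposed. The groups did not overlap in CPM, but Trained 3 and Exposed 3 had the same 2 reads and differed only by their library totals. Such an order, with all Trained CPM below all Exposed CPM, was found for 1.55% of the 387 entries.

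The ratio of miR-143-5p reads, scaled by library totals, was 0.261 in Trained over Exposed (exact 95% interval 0.0753 to 0.737, counting error only). Without Exposed 2, which holds 9 of the 17 Exposed reads, it was 0.426 (0.110 to 1.48). The 5p share of miR-143 reads averaged 0.0654% ± 0.0287 in Trained and 0.167% ± 0.0833 in Exposed (SD, n = 4 each; exact permutation p = 0.0571, two-sided, adjusted p = 0.229 over 4 shares). With 4 against 4 libraries the smallest p is 0.0286.

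In the authors' deposited table miR-143-5p had the second smallest p-value of all 387 entries, 0.000392, with a log2 fold change of -1.72 and FDR = 0.0759. That table had 3.1% of its entries at an unadjusted p under 0.05 and lower in Trained, and 0% at an FDR under 0.05. With no filter on counts, edgeR's quasi-likelihood test here gave miR-143-5p a log2 fold change of -1.85 (SE 0.63) with an unadjusted p of 0.0137 and FDR = 0.998. In that fit 3.62% of the 387 entries had an unadjusted p under 0.05 and a lower value in Trained.

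The miR-199-3p entries divided their shared sequence in nearly the same ratio everywhere. miR-199a-3p had 17, 22, 33 and 19 reads in Trained 1 to 4, and 18, 21, 27 and 15 reads in Exposed 1 to 4. miR-199b-3p had 14, 18, 21 and 15 reads in Trained, and 14, 17, 18 and 12 in Exposed. The miR-199a-3p entry was the higher in each of the 8 libraries, by 3 to 12 reads.

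miR-199b-3p took 43.3% ± 2.97 of the reads of both entries in Trained and 43.2% ± 2.19 in Exposed (SD, n = 4 each; exact permutation p = 0.971, two-sided, also 0.971 adjusted over 4 shares). Over the 8 libraries this share had an SD of 2.42 percentage points, where independent sampling of 27 to 54 reads a library would give 8.24. The split thus varied less between libraries than counting alone would make it, and reads of the mature strand alone cannot be assigned to either gene by sequence. How the authors divided such reads is not given in the sources used here.

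Summed over both entries, miR-199-3p stood at 124, 153, 206 and 142 CPM in Trained 1 to 4, against 132, 182, 177 and 140 CPM in Exposed 1 to 4. Trained 3 was the highest of all 8 libraries and Trained 1 the lowest, and all 4 Exposed libraries lay between them.

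The 5p strands of miR-199 differ between the genes and showed a more unequal division. They differ little, since the matching stretches of the hairpins above are nearly alike and hold the same seed, CCAGUGU. miR-199a-5p had 15, 18, 11 and 11 reads in Trained and 13, 21, 14 and 11 reads in Exposed. miR-199b-5p had 2, 2, 4 and 3 reads in Trained and 2, 3, 3 and 2 in Exposed. It was 21 of 135 reads of the 5p entries, or 15.6% (Wilson interval 10.4% to 22.6%), whereas the miR-199b-3p entry held 42.9% of the 3p reads (37.4% to 48.5%). These intervals, which cover counting error only, do not overlap, but this cannot show that the genes differ between strands. Reads of the shared 3p sequence cannot be assigned to either gene, so the 3p value describes how the entries were filled. The 3p interval also assumes independent sampling of reads, and that split varied less between libraries than such sampling gives. How reads of the similar 5p strands were assigned is not given either, so the 5p value may also depend on that. This was not tested.

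The 5p share of the 2 miR-199a entries was 38.4% ± 9.97 in Trained and 42.1% ± 6.47 in Exposed (SD, n = 4 each; exact permutation p = 0.543, two-sided, 0.724 adjusted over 4 shares). It was lowest in Trained 3, at 25%, and highest in Exposed 2, at 50.0%. Since the miR-199a-3p entry holds only part of a sequence shared with miR-199b, this share depends on that division.

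**Figure D2:**
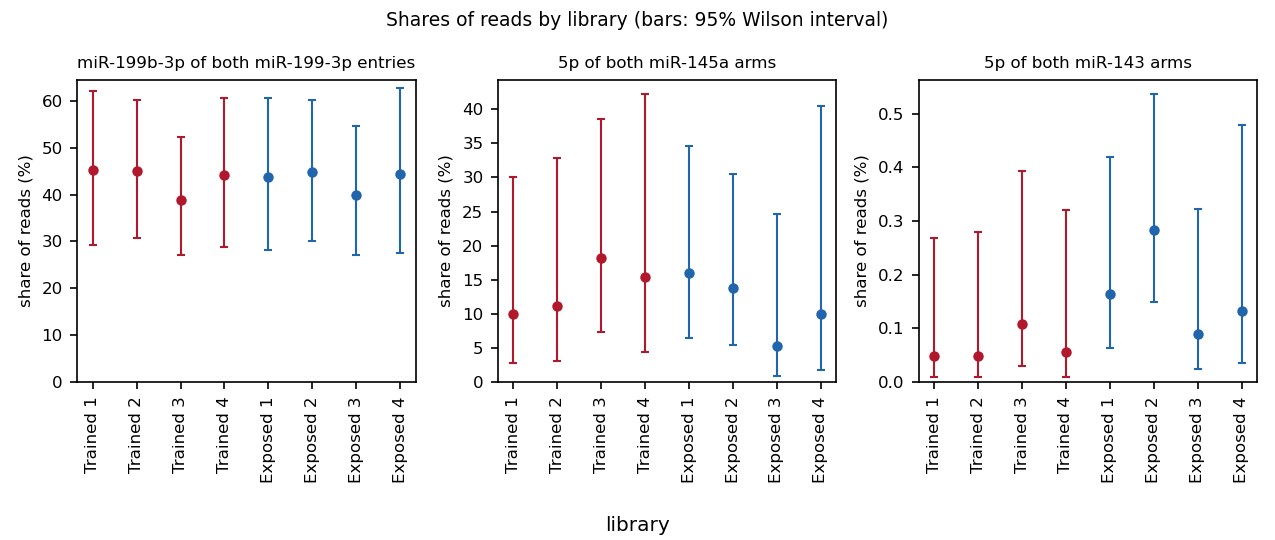
Share of reads (%) in each library, Trained left of Exposed, with 95% Wilson intervals: miR-199b-3p of both miR-199-3p entries, the 5p strand of miR-145a, and the 5p strand of miR-143. The miR-199b-3p points stay between 38.9% and 45.2%, closer together than their own intervals.

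Trained was set against Exposed to ask whether the sperm levels of these miRNAs differed between the treatments. miR-143-3p was lower in Trained in fitted value, and the miR-199-3p entries were close to equal. No tested member passed the test, which was edgeR's quasi-likelihood test over 226 miRNAs with enough counts, and neither did any other miRNA (0% at an FDR under 0.05; 4.42% at an unadjusted p under 0.05). DESeq2 also called 0, with 5.31% at an unadjusted p under 0.05, and limma-voom 0, with 3.98%. Of the 8 members, 5 passed the filter on low counts.

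The mean level of miR-143-3p was 7645 CPM in Trained (SD 574, n = 4), against 10497 CPM in Exposed (SD 3261, n = 4). Its log2 fold change, Trained over Exposed, was -0.49 (SE 0.19, 95% interval -0.92 to -0.06), with an unadjusted p of 0.0308 and FDR = 0.998 by edgeR. An unadjusted p under 0.05 with a lower value in Trained was found for 3.98% of tested miRNAs. Without Exposed 2 the Exposed mean was 8933 ± 1130 CPM (SD, n = 3), and the log2 fold change was -0.25 with an unadjusted p of 0.0600 and FDR = 0.967 by edgeR.

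miR-145a-3p averaged 62.0 CPM in Trained (SD 11.6, n = 4), against 80.9 CPM in Exposed (SD 30.7, n = 4), with a log2 fold change of -0.42 (SE 0.27, FDR = 0.998 by edgeR) that was -0.18 without Exposed 2. Its highest level was 120 CPM in Exposed 2, while Exposed 4 at 46.6 CPM was next to the lowest, Trained 4 at 45.9 CPM.

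miR-199a-5p averaged 54.2 CPM in Trained (SD 12.5, n = 4), against 66.5 CPM in Exposed (SD 22.7, n = 4), with a log2 fold change of -0.31 (SE 0.26, FDR = 0.998 by edgeR). Exposed 2 stood at 101 CPM, and the other Exposed libraries lay between 53.7 and 57.0 CPM, inside the range of the Trained libraries. The log2 fold change was -0.05 without Exposed 2, -0.18 without Trained 3 and 0.11 without both.

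The miR-199-3p entries had log2 fold changes of -0.04 (SE 0.23) for miR-199a-3p and -0.05 (SE 0.26) for miR-199b-3p, and -0.04 (SE 0.20; 95% interval -0.50 to 0.41) when summed, with FDR = 0.998, 0.998 and 0.999 by edgeR. The interval of the sum leaves room for differences of either sign. The sign for miR-199a-3p turned without any 1 of 5 libraries, Exposed 2 (0.02), Exposed 3 (0.07), Trained 1 (0.09), Trained 2 (0.01) or Trained 4 (0.01), and its value without Trained 3 was -0.22. For miR-199b-3p it turned without Exposed 2 (0.04) or Trained 1 (0.04).

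The entries with too few counts to be tested were fitted with no filter. miR-145a-5p then had a log2 fold change of -0.18 (SE 0.60) and miR-199b-5p of -0.05 (SE 0.60), with FDR = 0.998 for both by edgeR. Their intervals, -1.51 to 1.15 and -1.38 to 1.28, span changes of more than 1 log2 unit in both directions. All 8 members had fitted values below 0 in that fit (median -0.23), where 42.9% of all 387 entries did (median 0.02). With the filter, 5 of 5 members were below 0 (median -0.31), against 48.2% of the 226 tested (median 0.00494). This was 3 of 5 without Exposed 2 (median -0.05) or Trained 1 (-0.35), and 4 of 5 without Exposed 3 (-0.39), Trained 2 (-0.38) or Trained 4 (-0.25). The members are not independent of each other. The miR-199-3p entries divide 1 sequence, arms come from shared hairpins, and miR-143 and miR-145a share a transcript. Counts of their signs are therefore not counts of separate miRNAs.

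**Figure D3:**
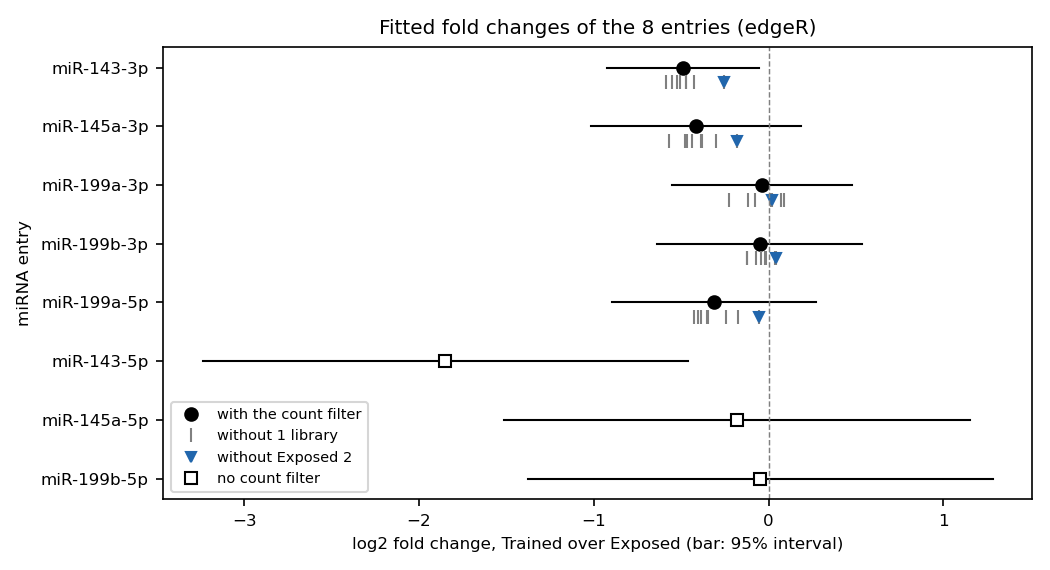
Fitted log2 fold change, Trained over Exposed, of each entry with its 95% interval (edgeR); grey ticks are fits without 1 library, the blue triangle the fit without Exposed 2, and open squares entries fitted with no count filter. The miR-143-3p value moves to -0.25 without Exposed 2, and the intervals of miR-145a-3p and the miR-199 entries include 0.

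Across libraries, the members did not all vary together. Levels of miR-145a-3p and miR-199a-5p varied with those of miR-143-3p (Pearson r = 0.86 and 0.83 over 8 libraries, log2 normalised CPM), and less so without Exposed 2 (0.67 and 0.36 over 7). The summed miR-199-3p entries did not track miR-143-3p closely (r = 0.21, and -0.29 without Exposed 2). Their correlation with miR-199a-5p was 0.11, and -0.38 without Exposed 2. They stood 0.38 above their own mean, on the log2 scale, in Trained 3, where miR-143-3p was 0.33 below its mean. These are descriptions of few libraries that share their scaling factors, and most members have few reads.

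Among the 221 tested miRNAs outside the set, the level of miR-10b-5p, from the HoxD cluster, was most like that of miR-143-3p (r = 0.98 over 8 libraries), and it still ranked 1st without Exposed 2 (0.89 over 7). Then came miR-200b-3p, an epithelial miRNA (0.91), miR-7214-5p (0.88), miR-100-5p (0.87) and the striated muscle miRNA miR-1a-3p (0.86). Without Exposed 2 these were 0.54, 0.86, 0.46 and 0.71. They then ranked 25th, 2nd, 40th and 9th of 221, so the places of miR-200b-3p and miR-100-5p rest on that library. miR-143-3p and these 5 miRNAs all had lower fitted values in Trained, and r was taken over both groups together. The 5 most like the summed miR-199-3p entries were miR-3074-5p (0.72), miR-1839-5p (0.71), miR-139-5p (0.67), miR-99a-5p (0.65) and miR-148b-3p (0.63). Without Exposed 2 these were 0.67, 0.89, 0.68, 0.59 and 0.83, and miR-3074-5p, miR-139-5p and miR-99a-5p then ranked 24th, 22nd and 40th of 221, so the order rests on that library.

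**Figure D4:**
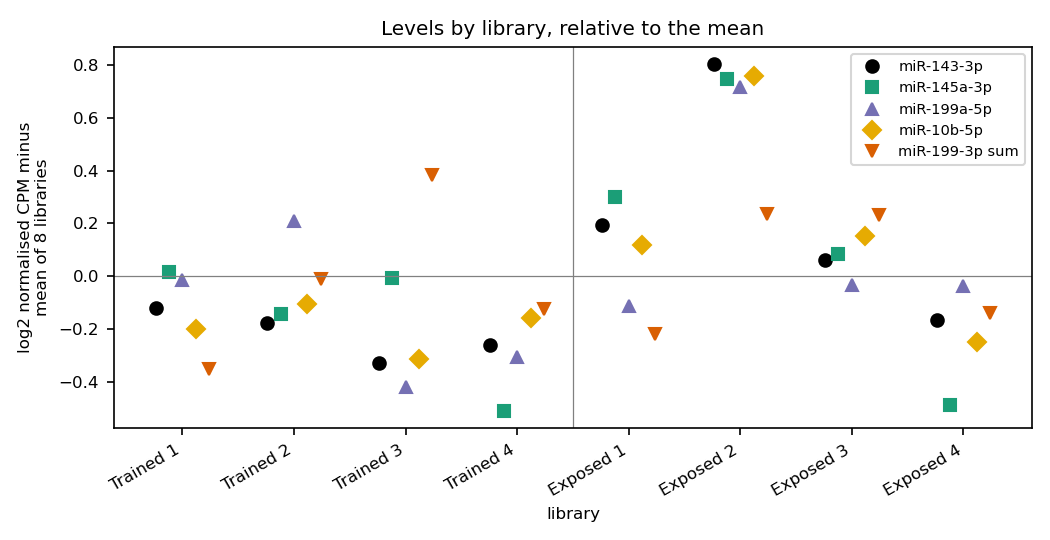
log2 normalised CPM in each library minus the mean of the 8 libraries, for miR-143-3p, miR-145a-3p, miR-199a-5p, the summed miR-199-3p entries and miR-10b-5p. In Exposed 2 miR-143-3p, miR-145a-3p, miR-199a-5p and miR-10b-5p all lie 0.72 or more above their means, while the miR-199-3p sum is highest in Trained 3.

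Exposed 2, the library with the highest miR-143-3p level, also stood out in markers of other tissues. Its summed level was the highest of the 8 libraries for the epithelial list (5 of 5 entries listed, 1844 to 2459 CPM in Trained and 1993 to 3509 in Exposed), the endothelial list (2 of 2, 210 to 300.4 CPM in Trained and 252 to 445 in Exposed) and the striated muscle list (4 of 7, 1298 to 1853 CPM in Trained and 1736 to 3078 in Exposed). The striated muscle entries miR-133b-3p, miR-208a-3p and miR-208b-3p had no row in the table.

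Trained 3 was the lowest in those 3 lists and the highest in the red blood cell list (5 of 5, 445 to 19675 CPM in Trained and 445 to 7507 in Exposed) and the leukocyte list (7 of 7, 2770 to 9442 CPM in Trained and 2283 to 6139 in Exposed, with miR-223-3p at 0 in Trained 2). Exposed 2 had the lowest leukocyte sum and the second lowest red blood cell sum. The male germ line list (17 of 17), led by miR-34c-5p, summed to between 331714 and 401576 CPM in Trained and 372723 and 395026 CPM in Exposed. The part of these other tissues in the miR-143-3p and miR-199 values was not tested.

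Of 15 other miRNAs reported in smooth muscle or fibroblasts, 14 were listed and 10 tested, 5 with higher and 5 with lower fitted values in Trained (median log2 fold change -0.01), and 0 passed an FDR of 0.05 by edgeR. The lower ones included miR-100-5p (-0.38), miR-152-3p (-0.34) and miR-125b-5p (-0.32), and the higher ones miR-29a-3p (0.14), a repressor of collagen genes, and miR-26a-5p (0.12). The most abundant, miR-21a-5p, was at -0.03 and averaged 40730 CPM over all libraries. The 14 listed entries summed to 63628.5 to 77654.7 CPM in Trained and 68309.1 to 72041.8 CPM in Exposed. Unlike the epithelial, endothelial and striated muscle lists, this sum was highest in Trained 3. Exposed 2, at 70540.9 CPM, lay inside the range of the Trained libraries. Since miR-21a-5p makes up much of the sum, it says little of the less abundant entries. Whether the sum follows smooth muscle content was not tested.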

How the data were processed

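The authors deposited read counts, whole numbers per mature miRNA entry, for 8 libraries, with totals of 193013 to 261903 counts. Extraction used a Qiagen miRNeasy kit and reads were 50 nt single-end from a NextSeq500, per the labels' protocols. How reads were trimmed and aligned, and to which miRNA reference and build, was not given in the sources used here. Beside the counts, the authors' deposited table gives log2 fold changes, p-values with FDR, and group mean counts (a score with no error); the submitters' processing notes name edgeR.

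Groups and replicate numbers came from the titles. Libraries of a group differed by more than sampling of reads gives (chi-square over degrees of freedom 3.87 to 72.8). The highest values, 58.8 to 72.8, were those of Trained 3 against the other Trained libraries. All 8 were kept, and fits without Trained 3 are among the alternatives. CPM is the count over the library total. Fits over the whole table used edgeR 4.0.16 (R 4.3.3) with TMM factors (0.963 to 1.04), its expression filter by group (226 miRNAs kept; 161 left out, with 0.258% of counts), two-sided robust quasi-likelihood tests and Benjamini-Hochberg adjustment. Normalised CPM includes the TMM factor. The standard error is the fold change over the t quantile of its p. Shares were tested with exact permutation tests over 70 assignments (scipy 1.17.1). The edgeR fit with its filter was tested on simulated data, with planted changes larger than those fitted here for the tested members. The share tests and the fit with no filter were not tested in this way.

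The members and lists were chosen with earlier results of these data known. Named miRNAs are all members, the 5 tested miRNAs with the highest correlation to miR-143-3p and to the summed miR-199-3p, and examples from the lists, of which those other than the most abundant were chosen after their values were seen. Alternatives were other scaling factors, filters of none or 10 CPM in 4 libraries, DESeq2 1.42.0, limma-voom (limma 3.58.1), no robust estimation, the replicate block, summed entries or arms, and leaving out libraries. Intervals and errors on reads cover counting error only, since no molecular identifiers are given.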

Additional observations from a re-analysis of the deposited data

Results flagged for a closer look

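In groups of 4 libraries, 1 library stood far from the other 3 in 7 of 48 checks of a level, a share or a list sum. The cut-off would flag about 1 in 20 checks of independent, normally distributed values. These checks overlap and some rest on few reads, so 7 of 48 was not read as an excess over chance. Trained 3 was high for miR-143-5p (7.64 CPM), for miR-145a-5p (15.3 CPM) and for the 5p share of miR-143 reads (0.108%), values that rest on 2 to 4 reads. It was low for the miR-199b-3p share of miR-199-3p reads (38.9%) and for the summed male germ line list (331714 CPM). Exposed 2 was high for miR-199a-5p (101 CPM) and for the summed epithelial list (3509 CPM). The causes were not tested.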

How the results depend on the processing

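No miRNA passed an FDR of 0.05 in the main analysis or in any of the 21 alternatives. miR-143-3p and miR-145a-3p kept negative log2 fold changes in all 20 alternatives that held them, from -0.59 to -0.17 and from -0.57 to -0.18. With arms summed, miR-143 stood at -0.49 and miR-145a at -0.39. The median of the tested members ranged from -0.39 to -0.05 without 1 library. Without 1 library miR-199a-3p ranged from -0.22 to 0.086 and miR-199b-3p from -0.12 to 0.044, and miR-199a-5p was at 0.11 without Exposed 2 and Trained 3. The difference in the miR-199b-3p share turned sign with pooled reads (-0.19 percentage points) and ranged from -1.02 to 1.53 without 1 library. That in the miR-199a-5p share ranged from -6.54 to 0.75, above 0 without Trained 3 only. The difference in the miR-145a share ranged from 0.00036 without Trained 3 to 0.15 without Trained 4, and was 0.016 without Exposed 4. That in the 5p share of miR-143 stayed between -0.13 and -0.06. Same-numbered libraries did not deviate together in every pair (r = -0.41, 0.66, 0.69 and 0.49 for numbers 1 to 4), and Trained 1, Exposed 1 and Exposed 4 each correlated best with another number, so the numbers were not taken as pairs. With the replicate block, miR-143-3p stood at -0.44 with FDR = 0.723 by edgeR, and no call changed. At 193013 to 261903 counts a library, 10 CPM is 2 to 3 reads, which limits the 5p entries most.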
